A study of Gallus gallus with 8 samples.

Results

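The enzymes that make hydrogen sulfide (H2S) from cysteine and homocysteine, and those that oxidize it to thiosulfate and sulfate, were followed in the trachea of chickens (Gallus gallus) kept in H2S gas and of control birds. The genes were found by exact match of 10 listed symbols to the gene identifiers of the count table, and 8 of its 26296 genes matched. They are the makers CBS, CTH and MPST, the oxidizers TST, ETHE1 and SUOX, and 2 enzymes at the edges of the pathway, MAT1A and CDO1. The 2 remaining symbols, SQRDL and SQOR, both name sulfide:quinone oxidoreductase, the first enzyme of mitochondrial H2S oxidation, which was not analysed here, so the oxidizing side lacks its entry step.

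The exposed group breathed H2S from week 0, held between 3.5 and 4.5 mg/kg in weeks 0 to 3 and between 19.5 and 20.5 mg/kg in weeks 4 to 6, and the control chamber received none. The birds were 42 days old, and the labels name no strain, sex or allele for either group. RNA was taken from trachea, and mRNA counts came from 1 H2S library and 1 control library. The groups were kept in different chambers, so chamber and gas cannot be told apart, and the labels do not say how many birds a library holds. With 1 library per group there was no replicate and no test between conditions, no p-value is given, and each interval below covers counting error only.

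H2S is toxic because it blocks cytochrome c oxidase, yet animal cells also make it in small amounts. CBS and CTH form the transsulfuration pathway, which carries sulfur from homocysteine to cysteine, and both can release H2S from these amino acids, while MPST releases it from mercaptopyruvate, a product of cysteine. In mitochondria, sulfide:quinone oxidoreductase moves the sulfur onto glutathione, ETHE1 oxidizes the resulting persulfide to sulfite, TST (rhodanese) joins sulfite and persulfide sulfur to thiosulfate, and SUOX turns sulfite into sulfate. These roles were established mainly in mammals.

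The library of the H2S-exposed group, called the exposed library below and labelled H2S in the figures, held 20839798 counts, and the control library held 18875586. Levels are given in CPM, counts scaled to a common library total, after TMM scaling, which sets the bulk of genes to no change, and ratios are H2S over control. Of the 26296 genes, 15268 had at least 20 counts in 1 library and are called measured, and all 8 enzyme genes passed this filter in both libraries. Among all measured genes the median log2 ratio was 0.00. Counts were not divided by transcript length, since no length of the counted transcripts was given. Levels are therefore compared between libraries for 1 gene and not between genes. Sums, shares and quotients over several genes also lack this division. Genes weigh in them by their counts, and they are read only as a comparison of the libraries. In bulk tissue, fewer cells of a type and less RNA per cell cannot be told apart.

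CBS was the enzyme gene with the highest ratio, and ETHE1 and MAT1A had the lowest. CBS stood at a ratio of 1.58, ETHE1 at 0.513 and MAT1A at 0.541, while SUOX, CDO1, MPST, TST and CTH lay between 0.782 and 1.07. None of the 8 genes was past 2-fold, where 8.42% of the measured genes were (4.71% higher and 3.71% lower). Past 1.5-fold were 3 of the 8, where 19.9% of measured genes were. CBS was the 1 on the higher side (10.6% of measured genes) and ETHE1 and MAT1A were the 2 on the lower side (9.31%). The counting interval left out a ratio of 1 for 5 of the 8 genes, where it did so for 55.3% of measured genes, so such an interval was common in these libraries. The median log2 ratio of the 8 genes was -0.20, with 2 above a ratio of 1 and 6 below it, against 7616 above and 7652 below among all measured genes.

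**Figure D1:**
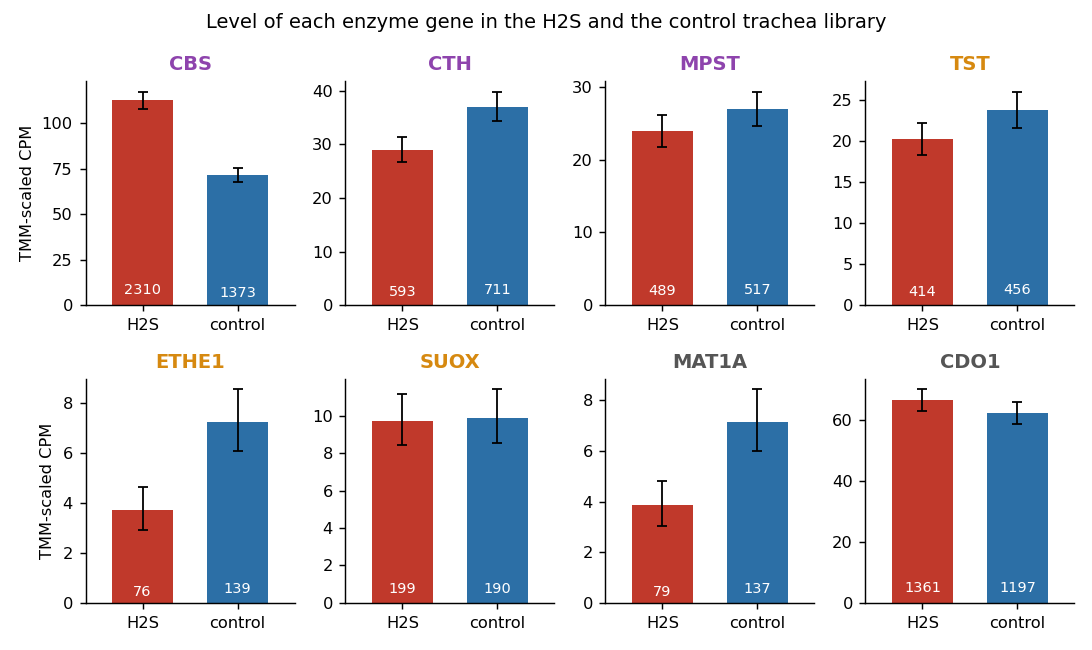
Level of each of the 8 enzyme genes in TMM-scaled CPM (vertical axes from 0, a separate scale for each gene) in the exposed library (red) and the control library (blue); bars are single libraries, error bars are 95% exact Poisson intervals of the count, and white numerals are raw counts. CBS was higher in the exposed library, ETHE1, MAT1A and CTH were lower, and the intervals of the other 4 overlapped between the libraries. TST is among these 4, although the interval of its ratio (0.744 to 0.975) left out 1.

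Among the makers, CBS, the enzyme that joins homocysteine to serine, had 2310 counts in the exposed library and 1373 in the control library. These counts correspond to 113 CPM (95% exact Poisson interval 108 to 117) in the exposed library and 71.5 CPM (67.8 to 75.4) in the control library. The ratio was 1.58 (95% exact interval 1.48 to 1.69), and 8.95% of measured genes had a higher one.

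CTH, which splits the cystathionine made by CBS into cysteine, went the other way. It had 593 counts or 29.0 CPM (26.7 to 31.4) in the exposed library, against 711 counts or 37.0 CPM (34.3 to 39.8) in the control library. Its ratio was 0.782 (0.700 to 0.874), and 17.9% of measured genes had a lower one. The consecutive steps of transsulfuration thus had ratios on opposite sides of 1.

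MPST, the mercaptopyruvate sulfurtransferase, differed less between the libraries than CBS. It had 489 counts or 23.9 CPM (21.8 to 26.1) in the exposed library and 517 counts or 26.9 CPM (24.6 to 29.3) in the control library, a ratio of 0.887 (0.782 to 1.01). This interval includes 1, and at this depth no difference could be detected. Of the 3 makers, therefore, 1 was higher in the exposed library by more than counting error, 1 was lower, and 1 was not distinguishable.

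Within the makers, the share of CBS was larger in the exposed library. CBS took 68.1% of their summed counts in the exposed library (95% exact binomial interval 66.5 to 69.7) and 52.8% in the control library (50.8 to 54.7). CTH took 17.5% in the exposed library and 27.3% in the control library. There were 3.90 CBS counts for each CTH count in the exposed library and 1.93 in the control library, a 2.02-fold difference (1.77 to 2.30). Such a quotient within a library does not depend on how the libraries are scaled. MPST and CTH kept closer to each other, since the CTH count per MPST count was 1.21 in the exposed library and 1.38 in the control library (ratio 0.882, 0.745 to 1.04).

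In the RefSeq gene table of assembly GRCg7b, used here for names and for which genes neighbour each other, the gene next to CBS is CYLY, whose symbol stands for cysteine lyase, a relative of CBS that makes H2S from cysteine and sulfite in birds. It stands in the count table as LOC418544, with 33 counts in the exposed library and 43 in the control library, a ratio of 0.720 (0.443 to 1.16). This interval also includes 1. The counts of CYLY were few beside those of CBS, but reads of related sequence may have been divided between them. CYLY was added after its values were seen.

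Among the oxidizers, ETHE1, the persulfide dioxygenase, had 76 counts in the exposed library and 139 in the control library. That is 3.71 CPM (2.92 to 4.64) in the exposed library against 7.24 CPM (6.08 to 8.54) in the control library, a ratio of 0.513 (0.382 to 0.683). It was 1 of the 2 thinnest counts among the enzyme genes, and 3.94% of measured genes had a lower ratio. ETHE1 lies just inside the 2-fold limit, and with scaling by total counts its ratio was 0.495, past it.

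TST had 414 counts or 20.2 CPM (18.3 to 22.3) in the exposed library and 456 counts or 23.7 CPM (21.6 to 26.0) in the control library. Its ratio was 0.851 (0.744 to 0.975), close to that of MPST. The 2 genes are neighbours in GRCg7b and encode related sulfurtransferases, and reads from stretches that are alike may have been counted for either. MPST counts per TST count were 1.18 in the exposed library and 1.13 in the control library, a quotient of 1.04 (0.865 to 1.25).

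SUOX, the last oxidizer, was at nearly the same level in both libraries. It had 199 counts or 9.72 CPM (8.41 to 11.2) in the exposed library and 190 counts or 9.89 CPM (8.54 to 11.4) in the control library, a ratio of 0.982 (0.801 to 1.20). In GRCg7b it overlaps RAB5B, which had 422 counts in the exposed library and 412 in the control library. The strand setting of the counting is not given in the sources used here, so reads from the shared stretch could belong to either gene.

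**Figure D2:**
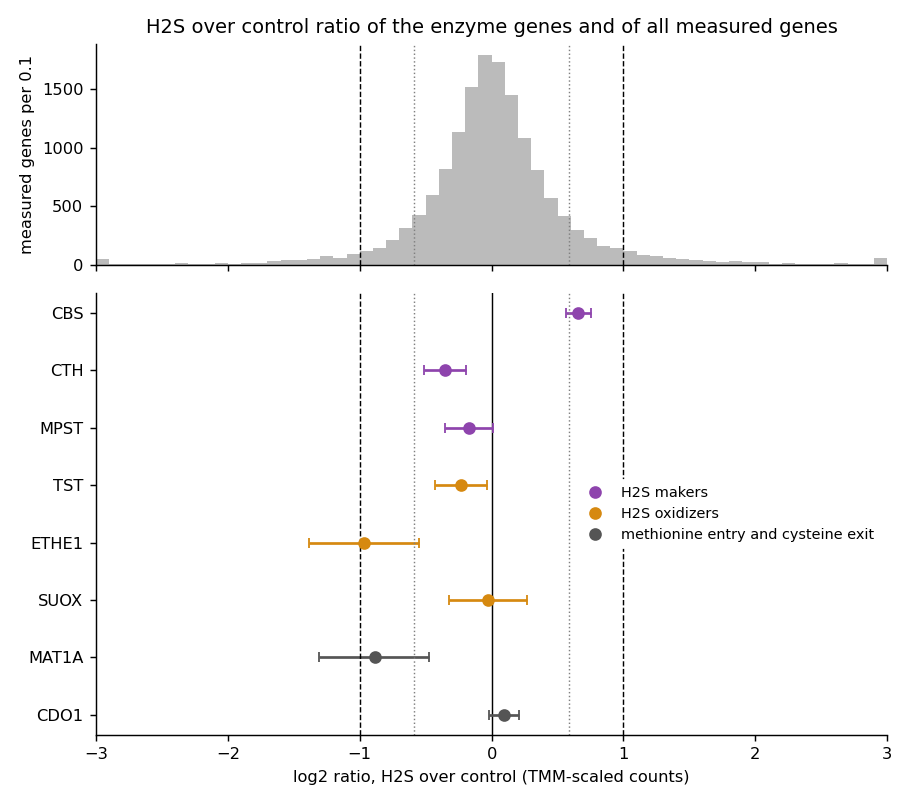
Upper panel: number of measured genes (15268 in all) by log2 ratio of H2S over control in bins of 0.1, with values beyond 3 in either direction in the end bins. Lower panel: the 8 enzyme genes with 95% exact counting intervals, coloured by role; dashed lines mark 2-fold and dotted lines 1.5-fold. CBS lies to the right of the centre, ETHE1 and MAT1A lie near the lower 2-fold line, and the other 5 lie between the dotted lines.

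Makers were next set against oxidizers. The 3 makers had 3392 counts together in the exposed library and 2601 in the control library, a ratio of 1.22 (1.16 to 1.29). The 3 oxidizers had 689 counts in the exposed library and 785 in the control library, a ratio of 0.823 (0.742 to 0.913). There were 4.92 maker counts for each oxidizer count in the exposed library and 3.31 in the control library, a 1.49-fold difference (95% exact conditional interval 1.32 to 1.67).

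In summed counts, where a gene weighs by its counts, this difference rested on CBS. ETHE1 made up 11.0% of the oxidizer counts in the exposed library and 17.7% in the control library. It therefore weighed little in these sums. CTH and MPST without CBS had 1082 counts in the exposed library and 1228 in the control library, and their quotient with the oxidizers was 1.57 in the exposed library and 1.56 in the control library. The difference without CBS was 1.004-fold (0.879 to 1.15). CTH and MPST together had a ratio of 0.826 (0.761 to 0.897), next to the 0.823 of the oxidizers.

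Each maker was also set against each oxidizer, in 9 pairs. All 3 pairs with CBS had a higher quotient in the exposed library, at 3.08-fold with ETHE1 (2.29 to 4.16), 1.85-fold with TST (1.59 to 2.16) and 1.61-fold with SUOX (1.29 to 1.99). The pairs of CTH and MPST with ETHE1 were at 1.53-fold (1.12 to 2.09) and 1.73-fold (1.26 to 2.38). For CTH and MPST with TST or SUOX, the 4 quotients ran from 0.796 to 1.04, and each interval included 1. The oxidizers differed among themselves too, with a SUOX count per ETHE1 count of 2.62 in the exposed library and 1.37 in the control library.

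**Figure D3:**
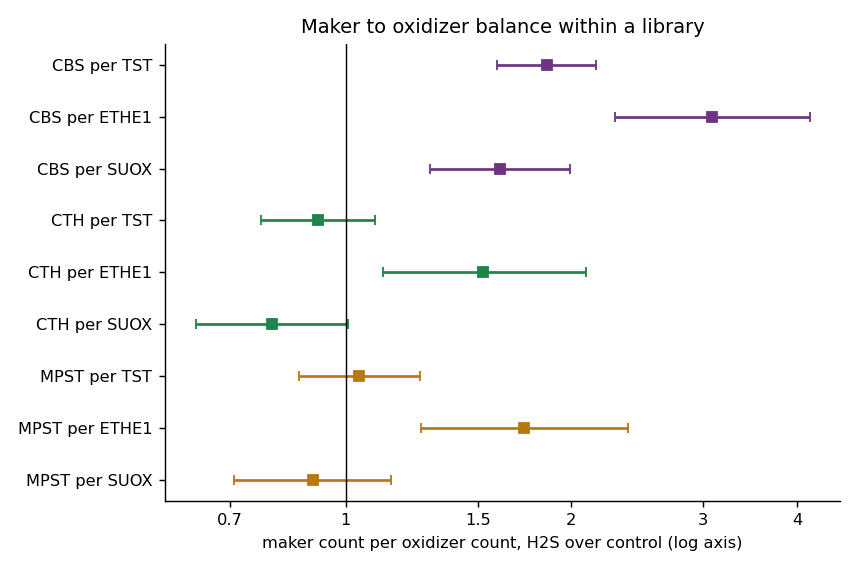
Count of each maker per count of each oxidizer, H2S library over control library (horizontal log axis), with 95% exact conditional intervals for counting error; squares are the 9 pairs and the vertical line marks no difference. The pairs with CBS or with ETHE1 lie to the right of 1, and the intervals of the other 4 include 1.

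At the entry of the pathway, MAT1A, the methionine adenosyltransferase best known from liver, had 79 counts in the exposed library and 137 in the control library. This is 3.86 CPM (3.05 to 4.81) in the exposed library and 7.13 CPM (5.99 to 8.43) in the control library, a ratio of 0.541 (0.405 to 0.718), and 4.66% of measured genes had a lower one. Beside MAT1A, a list of 14 hepatocyte and plasma protein genes was read, of which 8 were measured and the others fell below the count minimum. Of the 8 measured genes, 6 were at least 2-fold lower in the exposed library, where 3.71% of all measured genes were. The list was chosen with earlier results of these data known, so setting it beside all genes is no test. The fibrinogen chain FGG was the lowest, with 15 counts in the exposed library and 595 in the control library. FGG and FGA reached 20 counts only in the control library, so they could be counted only as lower. The summed level of the list was 1246 CPM in the exposed library and 3327 CPM in the control library. Most of that sum was TF, the transferrin gene, at 1076 CPM in the exposed library and 3034 CPM in the control library. APOA1, with the next highest CPM, had a ratio of 1.21. ALB, which defines hepatocytes, had 31 counts in the exposed library and 27 in the control library, the liver urea cycle gene CPS1 had 7 and 4, and APOH had 0 in both. The part of these genes in the MAT1A ratio was not tested.

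CDO1, the cysteine dioxygenase that sends cysteine toward taurine and sulfate and so away from the H2S makers, had 1361 counts in the exposed library and 1197 in the control library. Its levels were 66.5 CPM (63.0 to 70.1) in the exposed library and 62.3 CPM (58.8 to 66.0) in the control library, a ratio of 1.07 (0.986 to 1.15), and the interval includes 1. CDO1 counts per CTH count were 2.30 in the exposed library and 1.68 in the control library, a 1.36-fold difference (1.19 to 1.56). CDO1 counts per CBS count went the other way, at 0.589 in the exposed library and 0.872 in the control library. That quotient had a ratio of 0.676 (0.609 to 0.750). With 2 libraries there is no measure of how alike the patterns of 2 genes are, so no gene is named as following the enzymes.

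Genes of sulfur metabolism around the enzymes were read in 11 lists, which were chosen with earlier results of these data known. The lists named 112 genes, of which 104 were found in the count table and 99 were measured. Over the 99 measured genes of these lists, 3 were past 2-fold on the higher side (3.03%) and 1 on the lower side (1.01%), with a median log2 ratio of -0.04. The 3 are the cystine importer SLC7A11, the glutathione-cleaving transferase GGT5 and the creatine synthesis enzyme GAMT, and the 1 is CHAC1, which degrades glutathione. Among all measured genes these shares were 4.71% and 3.71%. MOCOS at 0.503 and GGCT at 0.513 lay just inside the lower limit, as ETHE1 did, so the share on the lower side depends on the library scaling. Beside the extreme ratios of each list, a few genes are named for their role, and these were chosen after their values were seen.

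SLC7A11 brings in cystine, the oxidized form of the cysteine that CBS, CTH and CDO1 work on. It had 759 counts in the exposed library and 251 in the control library, a ratio of 2.84 (2.46 to 3.28). Of 8 measured cystine and cysteine carriers it was the 1 past 2-fold, and the median log2 ratio was 0.14. SLC3A2, the partner chain that SLC7A11 needs, had a ratio of 0.793, the neutral amino acid carrier SLC1A4 1.38, the lysosomal cystine exporter CTNS 0.743 and the cysteine and glutamate carrier SLC1A1 0.683.

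Upstream of CBS, 10 of the 11 measured methionine cycle genes were within 2-fold, with a median log2 ratio of -0.04. GAMT, which uses the methyl group that MAT1A and its relatives activate, had 190 counts in the exposed library and 60 in the control library, a ratio of 2.97 (2.21 to 4.04). GNMT, another methyl consumer, had a ratio of 1.26 with an interval that includes 1 (0.901 to 1.77). MTRR, which serves the return of homocysteine to methionine, had 0.771 (0.692 to 0.858). MAT2B, the regulatory partner of the methionine adenosyltransferase of tissues other than liver, was at 1.02 (0.959 to 1.08), unlike MAT1A. The gene of that enzyme itself, MAT2A, was listed but not found under its symbol, so its level is not known here. In methionine salvage and polyamine synthesis, 0 of 8 were past 2-fold (median log2 ratio -0.06), from APIP at 0.858 and ADI1 at 0.887 to AMD1 at 1.16 and MRI1 at 1.35.

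CBS also needs serine and pyridoxal phosphate. Of 10 measured genes of serine supply and the amino acid response, 0 were past 2-fold and the median log2 ratio was 0.23. The highest ratios were those of DDIT3 at 1.36 (0.843 to 2.23) and PSPH at 1.33 (0.924 to 1.94). ASNS was at 0.802 (0.758 to 0.849). PHGDH, the first enzyme of serine synthesis, was at 0.697 (0.403 to 1.19) from 26 and 35 counts. The intervals of DDIT3, PSPH and PHGDH include 1. ATF4, the transcription factor that drives this response and can drive CTH, had a ratio of 1.24 (1.20 to 1.29). The part of ATF4 in the CTH ratio was not tested. Among genes of pyridoxal phosphate supply, PDXK, the kinase that makes it, had a ratio of 0.821 and the phosphatase PDXP one of 0.921. The interval of PDXP (0.702 to 1.21) includes 1.

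Other routes of cysteine had 0 of 13 measured genes past 2-fold and a median log2 ratio of 0.02. GADL1 and the cysteinyl-tRNA synthetase CARS had the highest ratios, at 1.54 and 1.49, and PPCDC of coenzyme A synthesis and the transaminase KYAT1 the lowest, at 0.664 and 0.635. GOT1, a cytosolic transaminase that can make the mercaptopyruvate that MPST uses, had a ratio of 0.671 (0.624 to 0.722). Its mitochondrial relative GOT2 had one of 1.01 (0.947 to 1.08).

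On the oxidizing side, the molybdenum cofactor that SUOX needs is made by MOCS1, MOCS2, MOCS3 and GPHN, with ratios of 1.19, 0.977, 1.30 and 1.12. The intervals of MOCS2 (0.870 to 1.10) and GPHN (0.994 to 1.26) include 1. MOCOS, which serves xanthine dehydrogenase and aldehyde oxidase but not SUOX, had 505 counts in the exposed library and 941 in the control library. Its ratio was 0.503 (0.451 to 0.561). XDH had a ratio of 0.729, and the aldehyde oxidase gene AOX1 went the other way at 1.18 (1.12 to 1.25). In the cofactor list, 0 of 8 measured genes were past 2-fold and the median log2 ratio was 0.06.

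Coenzyme Q, the electron acceptor of sulfide:quinone oxidoreductase, is made by enzymes of which 0 of 11 measured were past 2-fold. Their median log2 ratio was -0.09, with PDSS2 at 1.07, PDSS1 at 1.06, COQ7 at 0.717 and ADCK3 at 0.679. Of 9 measured sulfurtransferases and thiol acceptors, 0 were past 2-fold (median log2 ratio -0.12). They ran from TXNRD1 at 1.23 and GLRX at 1.04 to TXN at 0.768 and GLRX5 at 0.715, with TSTD2, which carries a rhodanese domain like TST, at 0.921. The intervals of PDSS1, PDSS2, GLRX and TSTD2 include 1. SELENBP1, a methanethiol oxidase that releases H2S, was at 1.01 (0.931 to 1.10).

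Glutathione carries the sulfur that ETHE1 oxidizes. Of its 9 measured genes (median log2 ratio -0.22), GGT5 was higher with 2269 counts in the exposed library and 658 in the control library (ratio 3.23, 2.96 to 3.53), and CHAC1 was lower with 183 and 508 (0.338, 0.284 to 0.401). GGT1 had a ratio of 1.54 and GGCT 0.513, and the synthesis enzymes GCLC, GCLM and GSS had 1.18, 0.915 and 0.860. For sulfate, the end product of SUOX, 0 of 9 measured genes of activation and transport were past 2-fold (median log2 ratio -0.01). PAPSS2 and SLC13A4 were at 1.34 and 1.32, and PAPSS1 and SLC26A11 at 0.853 and 0.818. The intervals of SLC13A4 (0.965 to 1.82) and SLC26A11 (0.592 to 1.13) include 1.

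**Figure D4:**
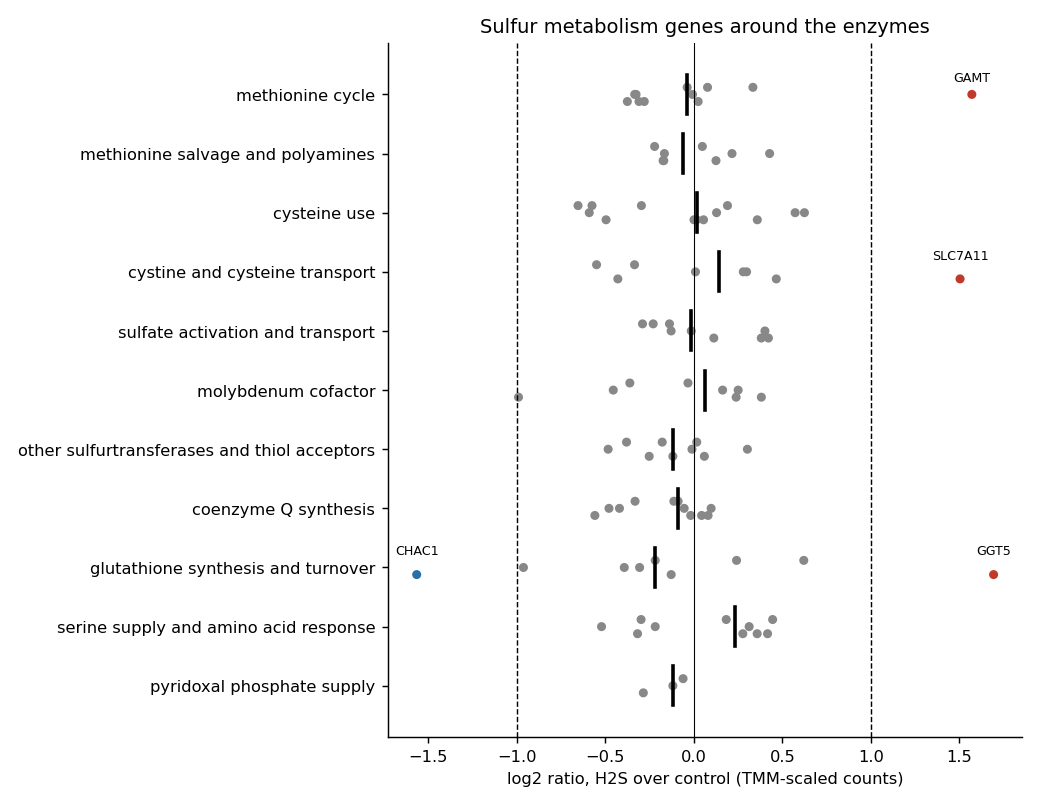
Log2 ratio of H2S over control for each measured gene of 11 sulfur metabolism lists; points are genes, thick bars are list medians, dashed lines mark 2-fold, and genes past it are coloured (red higher, blue lower) and named. Of the 99 genes, SLC7A11, GGT5 and GAMT lie beyond the upper line and CHAC1 beyond the lower one.

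Marker genes of several tissues and cell types differed in level between the libraries. The part of tissue make-up in the enzyme ratios was not tested. All 11 cartilage markers had ratios above 1, with a median ratio of 1.38 and summed levels of 24819 CPM in the exposed library and 19602 CPM in the control library. Skeletal muscle markers had 10 of 11 above 1, a median ratio of 1.46 and 19009 CPM in the exposed library against 13390 CPM in the control library. The CBS ratio of 1.58 (1.48 to 1.69) was above both medians. It lay within the range of single markers, 1.11 to 2.63 for cartilage and 0.949 to 3.49 for skeletal muscle. Adipocyte markers had 6 of 6 above 1 (median 1.30), and erythroid markers 3 of 4 (median 1.69) at sums of 32.3 CPM in the exposed library and 18.2 CPM in the control library.

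In the direction of CTH, TST and ETHE1, multiciliated cell markers had 11 of 12 ratios below 1 (median 0.866), with 1617 CPM in the exposed library and 1854 CPM in the control library. Surface epithelium markers had 7 of 12 below 1 (median 0.936), leukocyte markers 6 of 8 (median 0.872) and fibroblast markers 6 of 8 (median 0.911). Plasma cell markers had 6 of 7 below 1 and a median of 0.495, with 1594 CPM in the exposed library and 6689 CPM in the control library. Most of these sums came from IGJ, at 555 CPM in the exposed library and 2749 CPM in the control library, and IGLL1, at 867 and 3686 CPM. Smooth muscle markers had a median of 1.02, with 5 of 7 above 1. Epithelial, ciliated, cartilage and muscle markers were present in both libraries.

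**Figure D5:**
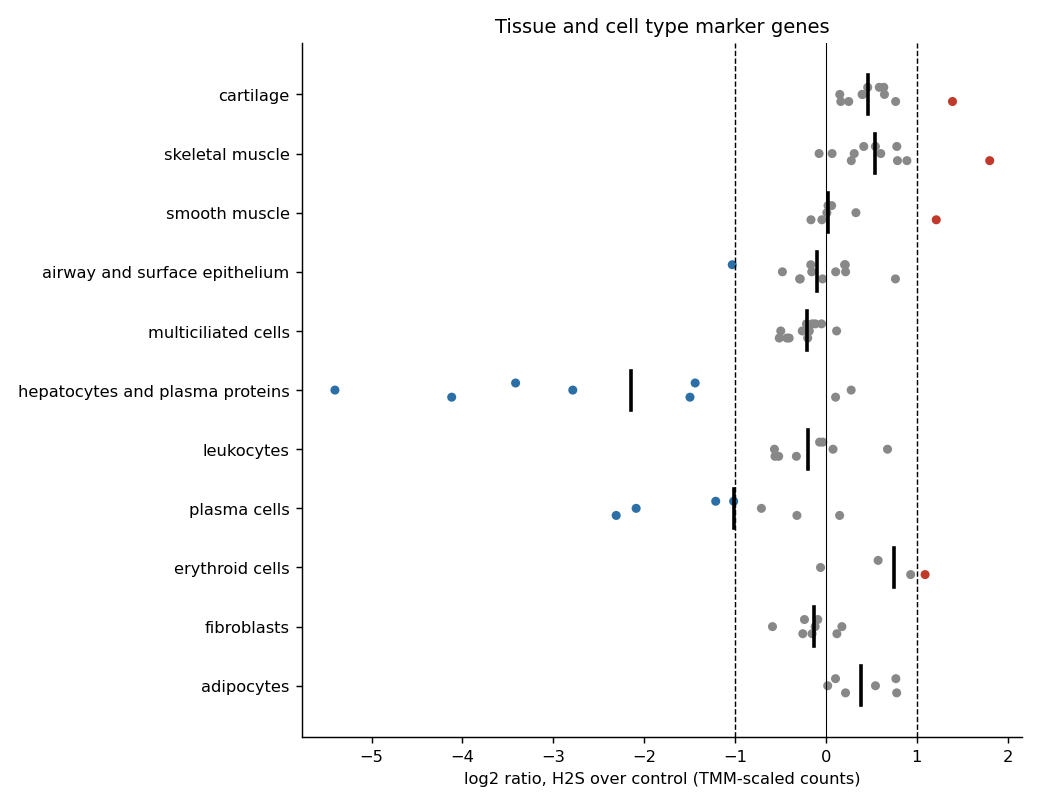
Log2 ratio of H2S over control for each measured gene of 11 tissue and cell type marker lists; points are genes, thick bars are list medians, dashed lines mark 2-fold and coloured points lie past it (red higher, blue lower). Erythroid, skeletal muscle, cartilage and adipocyte medians lie above 0, with the erythroid one highest, and the smooth muscle median lies just above it. Those of plasma protein and plasma cell genes lie furthest below 0.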

How the data were processed

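mRNA of chicken trachea was measured in 1 H2S and 1 control library. The authors deposited raw read counts per gene, and reads were aligned with HISAT2 per the submitters' processing notes. The sources used here name no version, genome build, annotation, counting tool or strand setting. The deposited small RNA counts were not used. The enzyme genes and gene lists were chosen with earlier results of these data known.

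Counts were divided by TMM effective library sizes (edgeR 4.0.16, R 4.3.3). Ratios have 95% exact intervals from the conditional binomial distribution, quotients within a library have exact conditional intervals, and single levels have exact Poisson intervals, computed with scipy 1.17.1. They cover counting error only, since 1 library per group gives no spread between libraries. Reads are not independent molecules, so the intervals may be too narrow even for counting error. A count of 0 against a positive one was set to 3 counts. A gene was measured where 1 library gave it at least 20 counts, and past 2-fold means a ratio of at least 2 or at most 0.5. The intervals were tested on simulated Poisson counts, the model that they assume. That test checks their computation and cannot cover reads that are not independent or spread between birds. 3 list genes were found under a LOC identifier through RefSeq, and 7 of the 8 enzyme genes matched the RefSeq table. ETHE1 did not match, so genes that overlap or neighbour it were not looked up.

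The naming rule took all enzyme genes, the 2 highest and 2 lowest measured ratios of each sulfur list and any gene past 2-fold. Some genes that this rule took are not reported here. Alternatives were other library scalings (total counts, upper quartile, DESeq2 1.42.0 size factors, TMM without muscle and cartilage markers), count minimums, a 1.5-fold limit and other members on each side.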

Additional observations from a re-analysis of the deposited data

How the results depend on the processing

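Each difference compares 2 libraries, so library, bird and chamber cannot be told apart from exposure. No paired analysis was possible because the mRNA groups share 1 replicate number and hold 1 library each. With 1 library per group, none was left out. ETHE1 and MAT1A rest on under 150 counts per library, and their intervals reach past 2-fold.

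Under 4 other library scalings, all 32 ratios of the enzyme genes stayed within their counting intervals, and all 44 list medians stayed between the median lower and the median upper bound of their genes. A scaling moves the ratios of all genes by the same factor, so these are 4 shifts and not separate checks of each gene or list. With total counts in place of TMM, the median log2 ratio of all genes moved by -0.05, and this put 1 enzyme gene past 2-fold (ETHE1 at 0.495), where TMM put 0. A 1.5-fold limit put 3 past it. The maker to oxidizer difference of 1.49-fold was 1.004-fold without CBS and 1.69-fold without CTH. It stayed within its interval without MPST, TST, ETHE1 or SUOX. For the geometric mean of the ratios it was 1.37-fold, also within that interval. Genes were left out of summed counts only, in which CBS weighed much and ETHE1 little. With the geometric mean, which weighs each gene alike, none was left out. Leaving out CBS, CTH, ETHE1 or SUOX was chosen after seeing the data. The alternatives without SQRDL and per coding length were not run, since neither that gene nor a coding length was used here. Of all genes, 1285 were past 2-fold, and the number was 3033 past 1.5-fold, 795 with at least 50 counts and 3774 with no minimum.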
